A study of Mus musculus with 12 samples.

Results

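The genes described here encode the machinery of mitosis: the spindle checkpoint, the cyclins and Cdk1, the mitotic kinases, the spindle motors, the kinetochore and the proteins that shape mitotic chromosomes. The list held 45 genes, and 44 were matched by a probe set that names the gene alone in the probe annotation, out of 18193 genes matched in this way. Ccnb1 had no such probe set and was not analysed here. The 44 genes were named by 102 probe sets, of which 90 were tested, and each gene is represented by the probe set with the highest mean signal. All 44 representatives passed the filter on low signals. A gene that is dim in kidney could pass only through the reference RNA, where it then had to be higher.

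Mouse RNA from 2 commercial sources was measured on 12 expression arrays in a series that compared ways of amplifying nanogram amounts of RNA. Kidney RNA (from Ambion) was assayed at 10 ng. The other source, universal mouse reference RNA (Stratagene, which the labels spell Strategene), is a pool made from cell lines and was assayed at 0.3, 3 and 10 ng. Each of the 4 groups had 3 arrays, and all titles hold the letters pRS, which nothing in the labels explains. The labels give no strain, age, sex or treatment, and do not say whether replicate arrays came from separate RNA preparations or separate amplifications, so the spread behind the p-values may be technical. Tissue, supplier and source of RNA change together between kidney and reference, and their parts cannot be told apart. Signals are linear intensities in units in which the 2% trimmed mean of each array is 500.

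Mitosis genes are transcribed in cycling cells and kept off in resting ones. In G1 and in quiescent cells the DREAM complex, which contains the p130 pocket protein, represses many of them, and in G2 the MuvB core together with B-Myb and FoxM1 activates them. The complex reaches many of these promoters through the cell cycle genes homology region (CHR, commonly TTTGAA), often next to CCAAT boxes bound by NF-Y. The adult kidney consists mostly of tubule cells that seldom divide, whereas cell lines cycle continuously.

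Promoter sequences were available from RefSeq (GRCm38.p6) for 38 of the 45 listed genes, as 41 windows of 250 bases before a transcription start, and none was listed for Aurkb, Ccna2, Cdc25c, Incenp, Kif20a, Smc4 and Tpx2. TTTGAA was present on either strand in 43.9% of these windows, against 16% of all 32851 promoter windows of the same length. CCAAT was present on either strand in 80.5%, against 33.8% of all windows, and at least 2 copies in 51.2%, against 10.1%. Both motifs stood together in 41.5% of the windows, against 5.5% of all windows, and in 0 of the windows did a TTTGAA match overlap a CCAAT match. GGGCGG, a GC box, was present in 65.9% against 32.7%, and TATAAA in 2.4% against 12.4%. These matches are descriptions of the letters and not evidence of binding. The 150 bases before the start are printed below for 4 genes that were much lower in kidney (Cdk1, Cdc20, Ube2c and Top2a) and for the 2 genes that differed least (Bub3 and Spc25), 5′ to 3′ on the strand of the gene, with every match to TTTGAA or CCAAT in capitals (TTCAAA and ATTGG where the match is on the other strand).
Cdk1 (chr10:69352913-69353062, minus strand): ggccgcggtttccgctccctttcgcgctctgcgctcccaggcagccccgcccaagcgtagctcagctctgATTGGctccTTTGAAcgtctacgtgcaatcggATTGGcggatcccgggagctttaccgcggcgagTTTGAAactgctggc
Cdc20 (chr4:118437344-118437493, minus strand): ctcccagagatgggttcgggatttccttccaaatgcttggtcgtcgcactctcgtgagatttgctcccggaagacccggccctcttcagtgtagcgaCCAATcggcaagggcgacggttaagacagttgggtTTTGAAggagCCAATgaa
Ube2c (chr2:164769779-164769928, plus strand): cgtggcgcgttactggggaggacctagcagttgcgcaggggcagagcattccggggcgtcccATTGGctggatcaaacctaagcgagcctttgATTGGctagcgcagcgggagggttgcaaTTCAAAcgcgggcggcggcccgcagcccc
Top2a (chr11:99024190-99024339, minus strand): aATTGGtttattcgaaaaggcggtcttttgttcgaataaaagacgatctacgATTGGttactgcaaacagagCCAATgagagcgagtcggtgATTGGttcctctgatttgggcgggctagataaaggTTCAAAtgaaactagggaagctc
Bub3 (chr7:131560220-131560369, plus strand): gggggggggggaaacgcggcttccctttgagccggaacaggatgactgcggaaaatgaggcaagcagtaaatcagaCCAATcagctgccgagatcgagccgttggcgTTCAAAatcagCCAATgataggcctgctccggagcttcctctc
Spc25 (chr2:69206214-69206363, minus strand): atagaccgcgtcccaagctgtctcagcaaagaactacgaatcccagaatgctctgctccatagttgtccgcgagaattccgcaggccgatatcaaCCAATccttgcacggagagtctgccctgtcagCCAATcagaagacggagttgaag

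The stretch of Cdk1 holds 2 TTTGAA and 2 CCAAT matches, with the nearer TTTGAA beginning 15 bases before the start. Cdc20 and Ube2c each hold 1 TTTGAA and 2 CCAAT matches, and Top2a 1 and 4. Bub3 holds 1 TTTGAA and 2 CCAAT matches in the first of its 2 listed promoters, so this gene with a small difference carries both motifs too. Spc25 holds 2 CCAAT matches and 0 TTTGAA matches, which says only that these letters are not in this window. The 4 genes printed as much lower are examples, and all 4 hold both motifs. Over 250 bases, 15 of the 38 genes with a promoter hold both. Nuf2, Birc5, Anln and Nusap1 hold neither, with fitted log2 differences of -5.61, -5.06, -4.64 and -4.58 between kidney and reference at equal input. Pttg1, Mad2l1 and Ndc80 hold neither as well, at -3.22, -3.19 and -2.85. Nuf2 and Ndc80 lay under background in every kidney array, so only bounds hold for them and their fitted values do not rank them. Whether the motifs go with the size of the difference was not tested.

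Kidney RNA contained far less signal for nearly all of these genes. At 10 ng, 43 of the 44 genes were lower in kidney than in the reference, 0 were higher, and Spc25 did not pass the test (limma on 3 against 3 arrays, Benjamini-Hochberg adjusted p under 0.05). Of all 12820 genes tested, 35.6% were lower and 27.1% higher. Members with kidney signals under the filter level of 65.4 passed only through the reference, so the filter favoured the lower direction for them. Among these are the 10 genes under background in every kidney array. The arrays of the 43 genes did not overlap between kidney and reference, as in 41.5% of all tested genes in this direction. The median log2 difference of the 44 genes was -4.54, a ratio of 23.3, against -0.19 over all tested genes. With signals under the background level raised to that level, the median was -4.09. Summed over the 44 probe sets, the signal was 10632 to 11158 per kidney array, against 105747 to 114647 per reference array at 10 ng. In total RNA from a tissue or a pool of cell lines, fewer dividing cells and less of each transcript per cell cannot be told apart. The heat map by array shows the same division gene by gene.

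**Figure D1:**
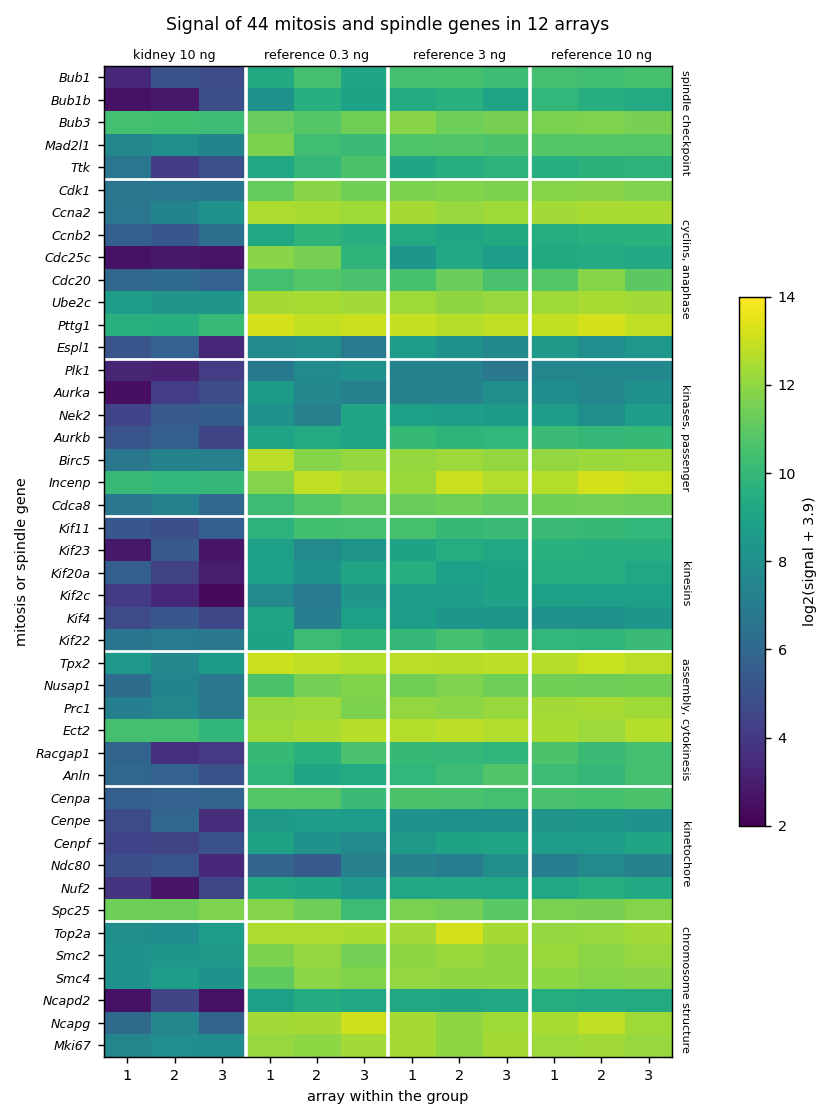
Signal of the 44 genes (rows, grouped by role) in the 12 arrays (columns), as log2(signal + 3.9) on a colour scale where yellow is high. The 3 kidney arrays are dark for almost every gene, with Bub3, Incenp, Ect2, Pttg1 and Spc25 the brightest rows, and the 9 reference arrays resemble one another.

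The spindle checkpoint delays anaphase until every chromosome is attached. All 5 of its genes were lower in kidney, with a median log2 difference of -4.41. The checkpoint kinase Bub1 gave 6.4, 27.9 and 23.6 in the 3 kidney arrays, against 1401, 1271 and 1457 in the reference arrays at 10 ng. All kidney values of Bub1 lie below 33.65, the level that 95% of the Bacillus control signals do not pass, so the ratio is a bound of at least 40.8-fold lower in kidney (adjusted p = 0.000169). Bub1b, which encodes the pseudokinase BubR1 of the checkpoint complex, was likewise at background, at 2.1, 3.1 and 25.3 in kidney against 966, 763 and 649.5 in the reference, at least 23.2-fold lower (adjusted p = 0.000546).

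The kinase Ttk (Mps1), which starts the checkpoint signal, gave 101, 13.1 and 26.3 in kidney and 705, 845 and 859 in the reference (log2 difference -4.41 ± 0.66, adjusted p = 0.00235). Only the first kidney array of Ttk stood above background, and the difference was -4.04 with the other arrays raised to that level. Mad2l1, the protein that is converted at unattached kinetochores into the inhibitor of Cdc20, kept a measurable kidney signal of 180.4, 249.9 and 167, against 1798, 1829 and 1818 in the reference (log2 difference -3.19 ± 0.18, adjusted p = 7.52e-05).

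Bub3, the adaptor that carries Bub1 and BubR1 to the kinetochore, was the member with the smallest called difference. Its kidney arrays gave 1376, 1304 and 1184 and its reference arrays 3025, 3228 and 3000.1, without overlap (log2 difference -1.26 ± 0.12, adjusted p = 0.000495). The size depended on the probe set. The probe set 1448473_at gave 1258, 1035 and 1051 in kidney and 1605, 1266 and 1357 in the reference, a log2 difference of -0.34 that did not pass (adjusted p = 0.112). The other 3 probe sets of Bub3 had log2 differences of -3.01, -2.77 and -1.65, all called lower, at reference signals of 209 ± 12.1, 178 ± 25.6 and 113 ± 20.4 (mean ± SD, n = 3).

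All 8 genes of the Cdk1 and anaphase group that could be measured were lower in kidney, with a median of -4.47. Cdk1, the kinase that drives mitotic entry, gave 104, 100.3 and 96.2 in kidney and 3665, 3689.6 and 3247 in the reference (log2 difference -5.09 ± 0.12, adjusted p = 6.21e-06). These kidney values were all above background and close to one another, and the standard error of its difference is small. Its partner Ccna2 (cyclin A2) gave 99.5, 167 and 282 in kidney and 5085, 5704 and 5610.3 in the reference (log2 difference -4.99 ± 0.37, adjusted p = 0.000180). Ccnb2 (cyclin B2) had a log2 difference of -3.81 ± 0.30.

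Cdc25c, a phosphatase that activates Cdk1, had no kidney signal above background. It gave 2.2, 3.2 and 2.6 in kidney against 625, 667 and 600 in the reference, at least 18.7-fold lower (adjusted p = 3.81e-06). Cdc20, the activator of the anaphase-promoting complex, gave 58.3, 65.4 and 50.7 in kidney and 1786, 3666 and 2002 in the reference (log2 difference -5.26 ± 0.30, adjusted p = 7.52e-05). Its second reference array is the highest of the 3, and the kidney arrays are all far below the lowest.

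Ube2c, the ubiquitin-conjugating enzyme of that complex, kept 341 ± 71.6 in kidney, against 5251 ± 317 in the reference (mean ± SD, n = 3 each). Pttg1 (securin), which the complex destroys to release separase, gave 779.6, 727 and 1127 in kidney and 7648, 9275 and 7324 in the reference (log2 difference -3.22 ± 0.21, adjusted p = 0.000124). Its other 2 probe sets gave larger differences of -3.75 and -5.47. Espl1, which encodes separase itself, was above background in 1 kidney array, with a log2 difference of -3.45 ± 0.62 and of -2.94 at the background level.

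Among the mitotic kinases and the chromosomal passenger complex, all 7 genes were lower in kidney, with a median of -4.02 (-3.18 at the background level). Plk1, a kinase of spindle assembly and cytokinesis, gave 5.9, 5.2 and 14.2 in kidney and 179, 189.6 and 192 in the reference, at least 5.55-fold lower (adjusted p = 0.000152). Aurka, the Aurora kinase of the spindle poles, was at background in all 3 kidney arrays too, at least 6.53-fold lower. For both genes the bound is small because the reference signal of the probe set is itself low. Nek2, a centrosome kinase, had a log2 difference of -3.33 ± 0.37.

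The passenger complex consists of Aurkb, Incenp, Birc5 (survivin) and Cdca8 (borealin). Aurkb gave 30.8, 45.4 and 18.2 in kidney and 1161, 1022 and 1056 in the reference (log2 difference -5.01 ± 0.30, adjusted p = 9.01e-05). Birc5 gave 104, 162 and 145 in kidney and 4240.1, 4740.5 and 4933 in the reference (log2 difference -5.06 ± 0.20, adjusted p = 2.51e-05). Cdca8 gave 105, 153 and 57.9 in kidney and 2823, 2902 and 2649 in the reference (log2 difference -4.78 ± 0.34, adjusted p = 0.000161). In none of these did the groups overlap.

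Incenp, the scaffold of the complex, had a high kidney signal by its representative 1439436_x_at, with 1123, 985 and 1001 in kidney against 6545, 9434 and 8094 in the reference (log2 difference -2.93 ± 0.17, adjusted p = 8.68e-05). The suffix marks a probe set with probes that may bind other transcripts. By 1423092_at, which carries no such mark, Incenp gave 33.5, 68.4 and 43.5 in kidney and 500.5, 521 and 538 in the reference (log2 difference -3.38 ± 0.26, adjusted p = 0.000195). Another tested probe set of Incenp, 1439252_at, was under background in all 3 kidney arrays and at least 3.27-fold lower (adjusted p = 0.00431), and the 2 others were too low to be tested. All 3 tested probe sets were called lower, and the representative alone stood far above background in kidney.

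All 6 mitotic kinesins were lower in kidney, with a median of -4.95 (-3.94 at the background level). Kif23, the centralspindlin motor of cytokinesis, gave 3.0, 38.7 and 2.6 in kidney and 802, 762 and 727 in the reference (log2 difference -5.95 ± 0.75, adjusted p = 0.00123, -4.44 at the background level). Kif2c (MCAK), which takes microtubule ends apart at the centromere, was at background in every kidney array, with 13.4, 6.5 and 1.1 against 447, 439.8 and 451 in the reference, at least 13.3-fold lower. Kif20a, a motor of the central spindle, gave 46.1, 15.9 and 3.8 in kidney and 710.4, 703 and 579.7 in the reference (log2 difference -5.08 ± 0.66, adjusted p = 0.00140, -4.15 at the background level). Each of these 3 genes had at most 1 kidney array above background.

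Kif11 (Eg5), the motor that pushes the spindle poles apart, gave 34.0, 25.4 and 43.4 in kidney and 1148, 1050.5 and 974 in the reference (log2 difference -4.82 ± 0.21, adjusted p = 3.14e-05). Kif22, a chromokinesin, was the kinesin with signal in all 3 kidney arrays, at 107 ± 9.94 against 1018 ± 111 in the reference (mean ± SD, n = 3 each, log2 difference -3.20 ± 0.15). The other chromokinesin, Kif4, had a similar log2 difference of -3.31 ± 0.22 with 1 kidney array above background.

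All 6 genes of spindle assembly, midzone and cytokinesis were lower in kidney, with a median of -4.65. Racgap1, the partner of Kif23 in centralspindlin, gave 55.3, 8.7 and 11.9 in kidney and 1612, 1146 and 1346 in the reference (log2 difference -5.90 ± 0.60, adjusted p = 0.000553, -5.09 at the background level). Prc1, which bundles the antiparallel microtubules of the midzone, gave 141, 181 and 105 in kidney and 5173, 5478 and 5014 in the reference (log2 difference -5.19 ± 0.21, adjusted p = 2.87e-05). Tpx2, the activator of Aurora A, gave 332, 183 and 372 in kidney and 6674, 8015 and 6934 in the reference (log2 difference -4.65 ± 0.29, adjusted p = 9.82e-05). Prc1 and Tpx2 were above background in all kidney arrays.

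Anln (anillin), the scaffold of the contractile ring, gave 61.8, 50.7 and 27.2 in kidney and 1203, 1009 and 1424 in the reference (log2 difference -4.64 ± 0.31, adjusted p = 0.000130). Nusap1, which bundles microtubules near chromosomes, had a log2 difference of -4.58 ± 0.31. Ect2, the exchange factor that activates RhoA at the cleavage furrow, differed least in this group, with 1411, 1361 and 942 in kidney and 5674, 4844 and 6423 in the reference (log2 difference -2.20 ± 0.21, adjusted p = 0.000458). Its kidney signal was 21.9% of that in the reference.

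Of the 6 centromere and kinetochore genes, 5 were lower in kidney, with a median of -3.83 over the 6 (-3.30 at the background level). Nuf2, a subunit of the Ndc80 complex that holds microtubule ends, gave 9.9, 2.7 and 20.1 in kidney and 588, 710.1 and 604 in the reference, at least 18.8-fold lower (adjusted p = 0.000264). Ndc80 itself was at least 4.61-fold lower, on a reference signal of 158 ± 34.9. Cenpa, the histone H3 variant of centromeres, gave 45.1, 50.6 and 56.8 in kidney and 1504, 1444 and 1535 in the reference (log2 difference -4.78 ± 0.13, adjusted p = 9.51e-06). Cenpa is thus a centromere gene with a small but steady kidney signal, above background in each array.

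Cenpf, a large protein of the outer kinetochore, gave 17.7, 18.2 and 27.5 in kidney and 393, 398 and 545 in the reference, at least 13.1-fold lower (adjusted p = 5.95e-05). Cenpe, a kinetochore kinesin, gave 23.7, 59.1 and 7.6 in kidney and 302, 324 and 275 in the reference (log2 difference -3.48 ± 0.60, adjusted p = 0.00410, -2.88 at the background level). Kidney arrays of Cenpe spread on both sides of the background level, while its reference arrays lay within a narrow range.

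Spc25, a subunit of the same Ndc80 complex (chr2:69193895-69206213, GRCm38.p6), was the exception. Its representative 1424118_a_at gave 2596, 2629 and 3312 in kidney and 3120.3, 2958 and 3498 in the reference, and the groups overlapped. The log2 difference was -0.17 (95% interval -0.56 to 0.21, adjusted p = 0.377). The second probe set of Spc25, 1453815_at, gave 63.7, 48.9 and 67.4 in kidney and 75.6, 39.0 and 65.2 in the reference (log2 difference 0.04, 95% interval -0.64 to 0.71, adjusted p = 0.915). Neither probe set of Spc25 therefore passed the test, and the first interval leaves out the 2-fold and larger differences of the representatives of the other 43 genes, whereas both Nuf2 and Ndc80 of the same complex were lower.

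All 6 genes of mitotic chromosome structure were lower in kidney, with a median of -4.26. The condensin subunit Ncapd2 gave 2.2, 19.0 and 2.0 in kidney and 680.5, 641 and 636 in the reference, at least 19.4-fold lower (adjusted p = 0.000342). Its second probe set, 1430010_at, had a log2 difference of -1.02 that did not pass (adjusted p = 0.296), with kidney arrays at 52.2, 5.5 and 60.6. The condensin subunit Ncapg gave 67.9, 186 and 52.6 in kidney and 5535, 7334 and 4949 in the reference (log2 difference -6.00 ± 0.48, adjusted p = 0.000229). The condensin ATPases Smc2 and Smc4 were less far apart, with log2 differences of -3.78 ± 0.17 and -3.60 ± 0.20.

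Top2a, the topoisomerase that untangles sister chromatids, gave 246, 226 and 407 in kidney and 4254, 4553 and 5088 in the reference (log2 difference -4.01 ± 0.25, adjusted p = 0.0001). Mki67 encodes Ki-67, the proliferation antigen that coats mitotic chromosomes. It gave 175, 234 and 223 in kidney and 4868, 5175 and 4487 in the reference (log2 difference -4.51 ± 0.16, adjusted p = 1.92e-05). For both genes every kidney array was above background and below every reference array.

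Residual signal in kidney differed widely among the members. Above background in all 3 kidney arrays were 23 of the 44 genes (52.3%), 3 in 2 arrays, 8 in 1 array and 10 in 0 arrays, and single kidney arrays had 28, 30 and 25 genes above it. Of all tested genes 89.4% were above background in all 3 kidney arrays and 3.40% in 0. By role, the share above background in all 3 arrays ran from 1 of 6 kinesins to 5 of 6 chromosome structure genes. The 10 genes at background throughout were Bub1, Bub1b, Cdc25c, Plk1, Aurka, Kif2c, Cenpf, Ndc80, Nuf2 and Ncapd2. Signal of a probe set depends on its probes as well as on the transcript, so these counts do not order the genes by abundance.

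As a share of the reference signal of the same probe set at 10 ng, the kidney signal had a median of 4.32%, with 25 genes under 5% and 35 under 10%. Many of these signals lie at background, so with signals under that level raised to it, a setting added after the values were seen, the median was 6.01%, with 18 genes under 5% and 30 under 10%. By either measure the largest shares were those of Spc25 at 89.1%, Bub3 at 41.8% and Ect2 at 21.9%. The plot of kidney and reference signals shows how far each gene stood from background.

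**Figure D2:**
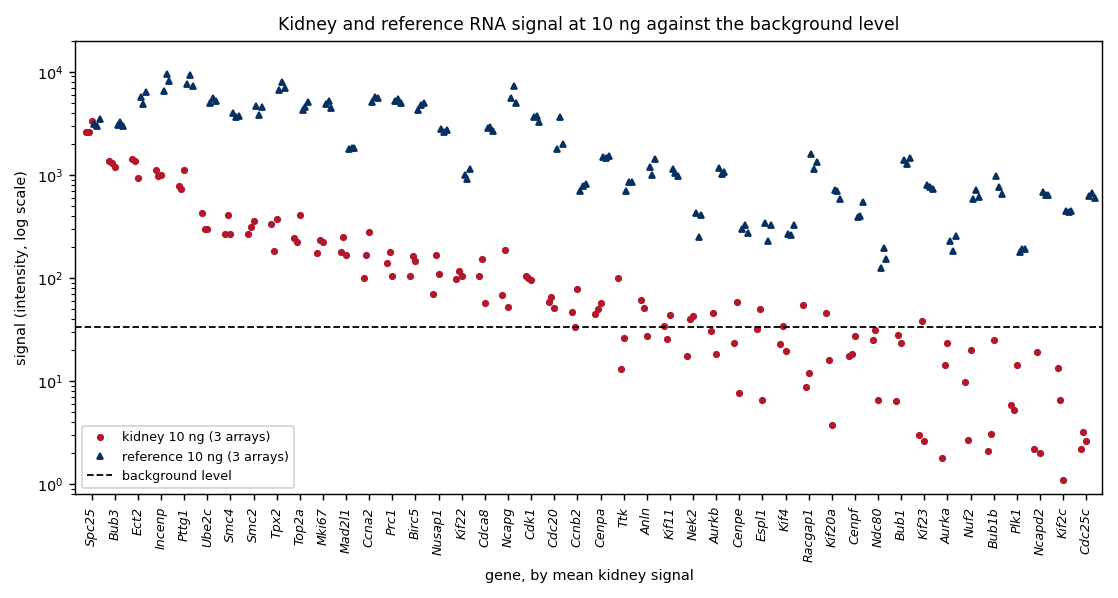
Signal (intensity, log axis) of each of the 44 genes in the 3 kidney arrays (circles) and the 3 reference arrays at 10 ng (triangles), with the genes in order of mean kidney signal and the background level of 33.65 as a dashed line. Circles and triangles overlap for Spc25 alone, and 10 genes have all 3 circles under the line.

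The probe sets of a gene mostly shared a direction. Of the 90 tested probe sets 85 were lower in kidney, 0 were higher and 5 did not pass, against 37.2% lower among all 27022 tested probe sets. In 26 of the 30 members with more than 1 tested probe set all of them were lower. The 5 that did not pass belonged to Bub3 (1448473_at), Ncapd2 (1430010_at), Nek2 (1443999_at, log2 difference -0.15) and both of Spc25. Nek2 by this probe set had signals of 8.3, 26.5 and 21.9 in kidney and 1.7, 16.5 and 109.6 in the reference, mostly under background.

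The same kidney arrays were also set against the reference at lower inputs, where tissue and input change together. These comparisons share the kidney arrays. Against the reference at 0.3 ng, 41 of 44 genes were lower in kidney and 0 higher (16.7% and 20.9% of all tested genes), with a median of -4.20 against 0.05 over all tested genes. Against the reference at 3 ng, 43 were lower and 0 higher (31.4% and 26.4% of all tested genes), with a median of -4.56 against -0.17. With arrays centred on their medians, 21.2% of all genes were lower and 33.7% higher than at 3 ng, and 43 members were lower. Spc25 passed at no input, with log2 differences of 0.36, 0.15 and -0.17 against reference inputs of 0.3, 3 and 10 ng. The differences with their intervals are drawn for all 3 inputs.

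**Figure D3:**
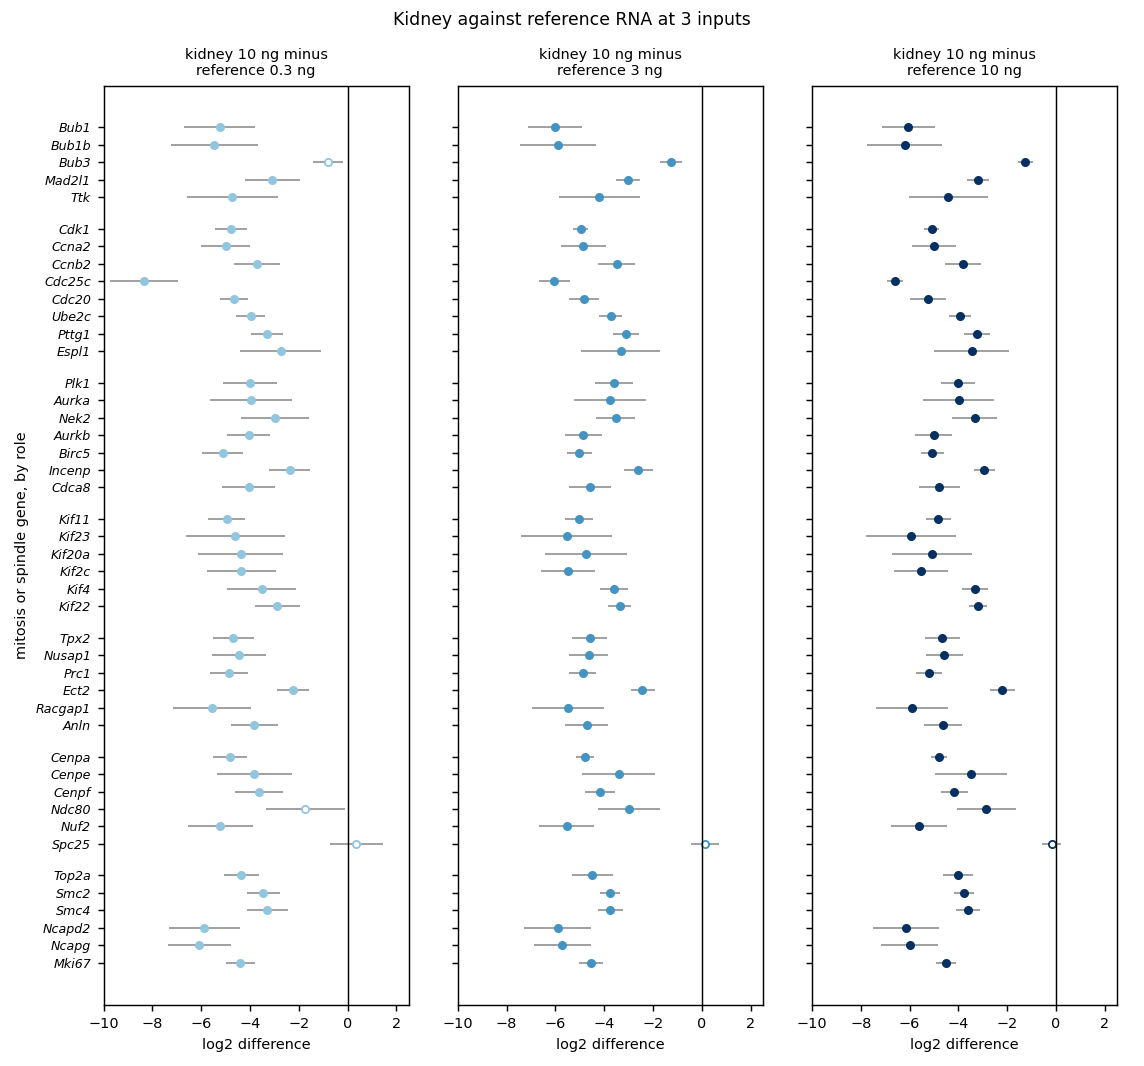
Log2 difference of kidney at 10 ng minus reference at 0.3, 3 and 10 ng (panels from left to right) for the 44 genes in order of role, with 95% intervals. Filled points passed the test and open points did not. Nearly all points lie far below the zero line, and the interval of Spc25 crosses that line in every panel.

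Bub3 and Ndc80 passed at 3 and 10 ng but not at 0.3 ng. Bub3 gave 1376, 1304 and 1184 in kidney and 2329.7, 1778 and 2737 in the reference at 0.3 ng (log2 difference -0.80, adjusted p = 0.0563). Ndc80 gave 25.2, 31.3 and 6.6 in kidney, against 57.2, 39.2 and 144 for 0.3 ng of reference RNA, 156, 129 and 239 for 3 ng and 126, 195 and 152 for 10 ng. For Ndc80, under background in all 3 kidney arrays, the log2 difference from 0.3 ng was -1.03 at the background level, and the fit did not call it (adjusted p = 0.0946). The kidney values of both genes lay below every 0.3 ng value, and neither gene was called between reference inputs.

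On arrays with a common trimmed mean, the mitosis genes mostly kept their signal as the input of reference RNA was lowered. All 44 genes were above background in all 3 arrays at 0.3 ng, at 3 ng and at 10 ng, where 78.0%, 88.7% and 89.1% of all tested genes were. This contrast does not measure retention, because members dim in kidney passed the filter only by being bright in the reference. At 10 ng the members had a median signal of 1208 to 1452 per array, against 426 to 427 over all tested genes. The summed signal of the 44 probe sets was 101198 to 103581 per array at 0.3 ng, 101259 to 107771 at 3 ng and 105747 to 114647 at 10 ng. Over all tested genes the sum was 19711722 to 20083321 at 0.3 ng, 18506606 to 19032678 at 3 ng and 18751440 to 19252944 at 10 ng. Since every array has the same trimmed mean, such sums cannot show a loss shared by all genes. A gene had at 0.3 ng a median of 84.9% of its signal at 10 ng, and 41 of 44 lay between 50% and 200%. At 3 ng the median was 93.0%, and all 44 lay between 70.1% and 143%. By the fitted log2 difference, 40 of 44 members and 10369 of 12820 tested genes lay between 50% and 200% at 0.3 ng. At 3 ng all 44 members and 12259 of the tested genes did.

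No member passed the test between inputs. These comparisons share arrays, since 0.3 and 3 ng are both set against the same 10 ng arrays. Between 0.3 and 10 ng, 0 of 44 were called by limma, and 5 had an unadjusted p under 0.05, while 0.546% of all tested genes were called lower and 0.0078% higher. The median log2 difference of the members was -0.30, against -0.21 over all tested genes, with a range from -1.35 to 1.75. Each array centred on its own median turned the median of the members to 0.13 and that of all genes to 0.22, which leaves the gap between them as it was. That gap was -0.09, and -0.12 after quantile normalization. Between 3 and 10 ng 0 members were called, as were 0% of all genes, with 2 at an unadjusted p under 0.05 and a median of -0.12 against -0.05. Between 0.3 and 3 ng 0 members were called, with 5 at an unadjusted p under 0.05, while 0.164% of all genes were called lower and 0.0078% higher. Of all 12820 tested genes 1714 had an unadjusted limma p under 0.05 between 0.3 and 10 ng. The number was 1085 between 3 and 10 ng and 1395 between 0.3 and 3 ng. Arrays did not overlap for 9 members lower and 2 higher between 3 and 10 ng (11.0% and 6.59% of all tested genes), and for 5 lower and 3 higher between 0.3 and 3 ng (13.7% and 7.73%). With 3 arrays a side, differences of the size seen here could not be told from the spread.

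**Figure D4:**
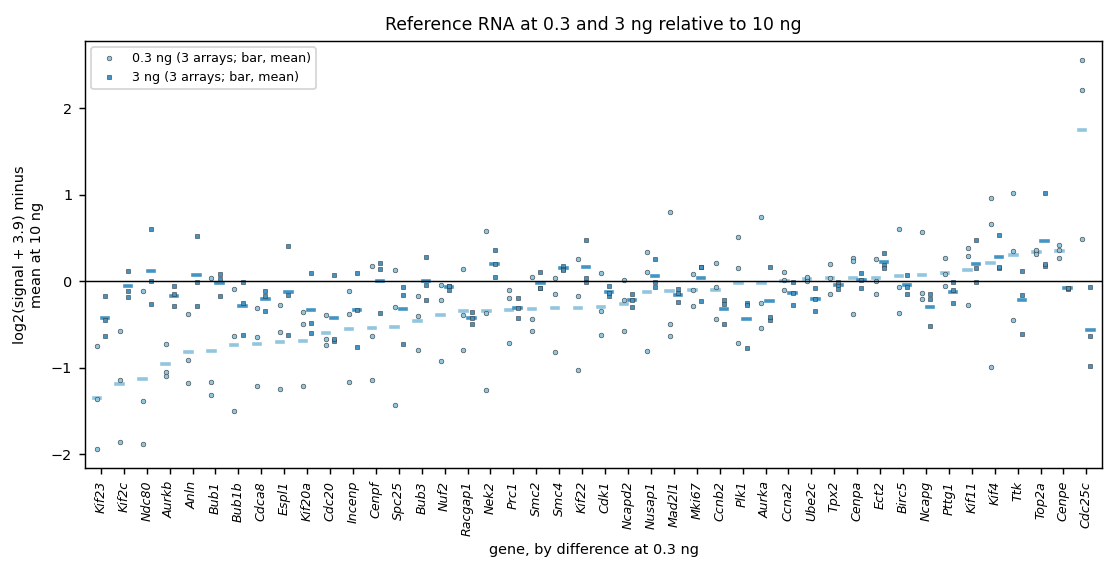
Log2(signal + 3.9) of the 44 genes in each reference array at 0.3 ng (circles) and 3 ng (squares), minus the gene's mean at 10 ng, with bars at the means and genes in order of the difference at 0.3 ng. Points at 0.3 ng spread far more than points at 3 ng, Kif23 has the lowest mean at -1.35, and Cdc25c the highest at 1.75.

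The genes with the lowest signal at 0.3 ng relative to 10 ng were Kif23, Kif2c, Ndc80, Aurkb and Anln. Kif23 gave 453, 196 and 295 at 0.3 ng, 489, 676 and 557 at 3 ng and 802, 762 and 727 at 10 ng, a log2 difference of -1.35 ± 0.35 between 0.3 and 10 ng (adjusted p = 0.166). Kif2c gave 199, 119.9 and 298 at 0.3 ng, 392, 414 and 486 at 3 ng and 447, 439.8 and 451 at 10 ng (-1.19 ± 0.37, adjusted p = 0.218). For both kinesins every 0.3 ng array lay below every 3 ng and 10 ng array. Between 0.3 and 10 ng alone, 8 of the 44 members had no overlap in this direction, where 17.8% of all tested genes did the same.

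Aurkb gave 519, 652 and 504 at 0.3 ng, 1035, 881 and 976 at 3 ng and 1161, 1022 and 1056 at 10 ng (-0.95 ± 0.23, adjusted p = 0.145). Anln gave 924, 528 and 638 at 0.3 ng, 983, 1194 and 1722 at 3 ng and 1203, 1009 and 1424 at 10 ng (-0.82 ± 0.31, adjusted p = 0.286). Ndc80, the weakest of these, had a log2 difference of -1.13 ± 0.50, with the third 0.3 ng array inside the range at 10 ng.

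Cdc25c had the highest signal at 0.3 ng relative to 10 ng. It gave 3729, 2934 and 884 at 0.3 ng, 316, 604 and 406 at 3 ng and 625, 667 and 600 at 10 ng. The log2 difference between 0.3 and 10 ng was 1.75 ± 0.57 (adjusted p = 0.233), and without the third 0.3 ng array it was 2.39 (adjusted p = 0.029), which is the setting in which a member was called in that comparison. The other probe set of Cdc25c, 1422252_a_at, gave 922, 998 and 373 at 0.3 ng, 287, 279 and 297 at 3 ng and 308, 282 and 290 at 10 ng (1.25 ± 0.43, adjusted p = 0.254). In both probe sets the first and second 0.3 ng arrays were high, the third was lower, and all 3 stood above the arrays at 3 and 10 ng.

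Cenpe and Top2a followed. Cenpe gave 362, 403 and 386 at 0.3 ng, 284, 282 and 284 at 3 ng and 302, 324 and 275 at 10 ng (0.35 ± 0.21, adjusted p = 0.490). Top2a gave 5832, 5938 and 5759 at 0.3 ng, 5236, 9369.8 and 5287 at 3 ng and 4254, 4553 and 5088 at 10 ng (0.34 ± 0.21, adjusted p = 0.50). With Cdc25c they made up the 3 members whose 0.3 ng arrays all lay above their 10 ng arrays, which 7.46% of all tested genes did.

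Probe sets of 1 gene went different ways at 0.3 ng. The representative of Bub3 gave 2329.7, 1778 and 2737 at 0.3 ng and 3025, 3228 and 3000.1 at 10 ng, lower without overlap. Its 4 other probe sets were all higher without overlap, among them 1448473_at with 2589, 2294 and 3147 at 0.3 ng and 1605, 1266 and 1357 at 10 ng. Their log2 differences were 0.91, 0.92, 0.62 and 1.12, against -0.46 for the representative, and none passed the test. In Smc2, 1458479_at had a log2 difference of -2.53 and 1429659_at one of 1.37, neither called, so the value for Bub3 or Smc2 at 0.3 ng differs with the probe set.

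**Figure D5:**
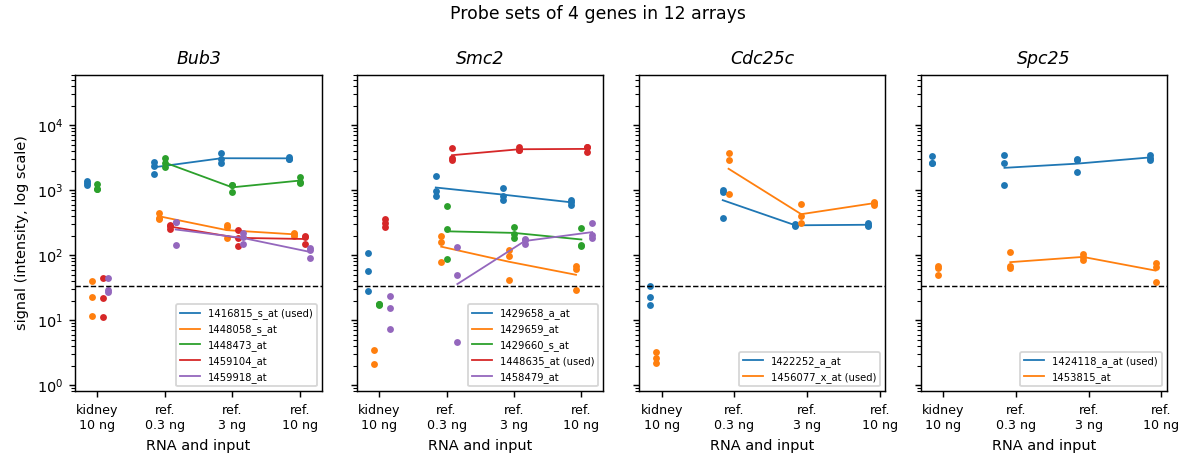
Signal (intensity, log axis) of every probe set of Bub3, Smc2, Cdc25c and Spc25 in the 3 arrays of each group, with lines through the group means of the reference inputs and the background level as a dashed line. The used probe set of Bub3 lies lower at 0.3 ng than at 10 ng while its 4 others lie higher, both probe sets of Cdc25c are highest at 0.3 ng, and those of Spc25 overlap between kidney and the reference at 10 ng.

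For the members the spread between replicate arrays was largest in kidney, where most signals were low. The median SD of log2 values over the members was 0.54 in kidney, against 0.46, 0.17 and 0.12 for 0.3, 3 and 10 ng of reference RNA, while over all tested genes it was 0.20, 0.61, 0.27 and 0.21. In kidney 23 of the 44 members had an SD over 0.5, against 17 at 0.3 ng and 1 at each of 3 and 10 ng. Of all 12820 tested genes 2230 had an SD over 0.5 in kidney, 7572 at 0.3 ng, 2973 at 3 ng and 1988 at 10 ng. The 95% interval of the fitted difference from 10 ng was wide for Kif23 (-7.80 to -4.10) and narrow for Cdk1 (-5.39 to -4.79) and for Cdc25c (-6.91 to -6.28), although Cdc25c was under background in all 3 kidney arrays.

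Other cell cycle genes were lower in kidney as well, by lists that hold none of the members. These lists too were chosen with earlier results of these data known, so they are not independent support. Their genes that are dim in kidney passed the filter only through the reference, where they then had to be higher. The counts below are for 10 ng, where 35.6% of all tested genes were lower and 27.1% higher, with a median of -0.19. Among other spindle and kinesin genes 19 of 24 tested were lower and 0 higher, with a median of -3.91 (-3.05 at the background level). The largest fitted differences were those of Tacc3 at -5.34, which stabilises spindle microtubules, of the minus-end motor Kifc1 at -5.30, and of Ckap2 at -5.21. The 5 that did not pass, named after their values were seen, were Kif3b, Kif5b, Numa1, Dctn1 and Dynlt3, with log2 differences from -0.25 to 0.34. Centred on array medians, Kif5b was called higher.

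Of 23 other kinetochore genes 22 were lower and 0 higher, with a median of -2.83 (-2.80 at the background level), led in fitted difference by Cenpp at -5.79, Cenpk at -5.55 and the cohesin protector Sgo2a at -5.51. Of 22 genes of mitotic entry and its transcription with a probe set, 19 were tested. Of the 19 tested, 16 were lower and 0 higher, with a median of -3.63 (-2.82 at the background level). The lower genes were led in fitted difference by Ccnf (cyclin F), Cdca3 and Cdca5 (sororin). Ccnf was at least 14.3-fold lower, Cdca3 had a difference of -5.24 and Cdca5 one of -5.05. The activators Foxm1 and Mybl2 (B-Myb), named for their role, were among them, Foxm1 with a difference of -3.38 and Mybl2 at least 5.71-fold lower.

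The anaphase-promoting complex itself was less different. Of 17 genes of its core and regulators 15 were lower and 1 was higher, with a median of -0.72. The lower genes were led by the inhibitor Fbxo5 (Emi1) at -2.64, the enzyme Ube2s at -1.96 and the subunit Anapc1 at -1.86. The subunit Anapc13 was higher, at 3257 ± 436 in kidney against 1791 ± 380 in the reference (mean ± SD, n = 3 each, log2 difference 0.87, adjusted p = 0.0123), also with arrays centred on their medians. With that centring the median of all tested genes was 0.06 in place of -0.19, 27.3% of them were lower and 32.9% higher, 9 of the 17 genes of this list were lower, and 43 members were lower.

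Of 15 further cohesin and condensin genes 10 were lower and 0 higher, with a median of -1.14. The condensin genes Ncaph at -4.60 and Ncapg2 at -4.14 led them, with the cohesin acetyltransferase Esco2 at -4.10. Rad21, Stag1, Stag2, Wapl and Esco1, named after their values were seen, did not pass. All 29 DNA replication genes were lower, with a median of -2.92, led by the licensing factor Cdt1 at -4.67 and the polymerase subunits Pole at -4.48 and Pold1 at -4.08.

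Of 18 cell cycle inhibitors and quiescence genes with a probe set, 17 were tested. Of the 17 tested, 11 were lower and 2 higher, with a median of -1.49. Of all tested genes 35.6% were lower and 27.1% higher, so higher genes were no more frequent in this list. Lower were among others the inhibitors Cdkn2a, at least 5.12-fold, and Cdkn1a (p21) at -2.46, and the antiproliferative gene Btg2 at -2.24. Higher were the pocket protein genes Rb1 and Rbl2 (p130). Rb1 averaged 1990 ± 261 in kidney and 1278 ± 148 in the reference, and Rbl2 341 ± 40.7 in kidney and 211 ± 56.2 in the reference (mean ± SD, n = 3 each, log2 differences 0.64 and 0.71, adjusted p = 0.0178 and 0.0376). Both were also called higher with arrays centred on their medians or quantile normalised.

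Markers of the labelled tissue were measured as a check. All 12 kidney tubule markers were higher in kidney, with summed signals of 67171 to 69451 in kidney arrays against 735 to 842 in reference arrays at 10 ng. All 5 endothelial markers were higher too, with sums of 5137 to 6017 against 123 to 289. All 5 fibroblast matrix markers were lower, with sums of 5684 to 6388 against 37360 to 41493. Of 7 lymphocyte markers 6 were lower and 1 higher, with sums of 6777 to 7174 against 13255 to 14400. Most of each sum came from Cd3e, at 6078 ± 167 in kidney and 10326 ± 514 in the reference (mean ± SD, n = 3 each). Its log2 difference was -0.76, against a median of -2.61 over the 7 markers, so the sums do not describe the others. Of 3 tested podocyte markers 1 was lower and 1 higher (sums over 4 measured 4839 to 5469 against 2207 to 2470), and all 3 tested myoblast markers were lower (sums over 4 measured 60 to 149 against 1563 to 1714). Most of the myoblast sum in the reference came from Myf5, at 1392 ± 99.6 (mean ± SD, n = 3). These differences in marker signal run along with the lower mitosis signals, and the part of cell composition in the latter was not tested.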

How the data were processed

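Values are the deposited intensities, 1 linear value per probe set and array, in the authors' value table, and the values themselves show that the 2% trimmed mean of each of the 12 arrays is 500. How the intensities were computed from the scans, and how the RNA was amplified and labelled, was not given in the sources used here. No further normalization was applied. Analyses used log2(signal + 3.9), and a fold change on this scale understates that of dim probe sets. Of 45101 probe sets, 64 controls were left out, and 27022 whose highest group mean lay above the 40th percentile (a signal of 65.4) were tested. The annotation gives 34945 probe sets 1 symbol, 932 several and 9160 none; 34741 were looked up by gene ID in RefSeq (GRCm38.p6) and 0 symbols changed.

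The test was limma (version 3.58.1, R 4.3.3) on the arrays of the 2 groups compared, with no covariates and two-sided tests. P-values were adjusted by Benjamini-Hochberg over all 27022 probe sets, with a threshold of 0.05. The background level, 33.65, is the 95th percentile of the signals of 27 control probe sets for Bacillus genes. A fold is given as at least N-fold where every array of the dimmer group lies under it. Values after ± in a log2 difference are standard errors. Where several probe sets name a gene alone, the one brightest on average in log2 over the 12 arrays stands for it. Values in every array are given for up to 4 called genes of each role group with the largest difference, the 5 with the highest kidney signal, and the 5 lowest and 3 highest at 0.3 ng against 10 ng; up to 3 genes in each direction are named from the other lists. The members and all lists were chosen with earlier results of these data known. Between replicates, Pearson's r of log2 values was 0.955 to 0.957 in kidney, 0.827 to 0.863 at 0.3 ng, 0.942 to 0.947 at 3 ng and 0.963 to 0.965 at 10 ng, so tests with 0.3 ng arrays assume an equal spread that the data do not have. Precision is limited by having 3 arrays a group. The fits were tested on simulated data. Alternatives changed the pseudocount, filter, scaling, representative probe set, weights, the samples in a fit and the replicate block, and left out each array.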

Additional observations from a re-analysis of the deposited data

How the results depend on the processing

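The 43 members lower in kidney than in the reference at 10 ng numbered 41 to 43 over 18 alternatives, as did those against 3 ng, and against 0.3 ng they numbered 37 to 43 (41 as reported), with 37 under array weights per group. Leaving out 1 array gave 43 in every case at 10 and 3 ng and 40 to 41 at 0.3 ng. Without probe sets marked _s_at or _x_at as representatives, a choice made after seeing the data, Bub3 in kidney against the reference at 3 ng was 0.01 (adjusted p = 0.970) in place of -1.27, and against 10 ng -0.34 (adjusted p = 0.112); the cause was not tested, but the probe set differs by construction. Members called between 0.3 and 10 ng numbered 0 to 1 when an array was left out, the 1 being Cdc25c without the third 0.3 ng array. With all arrays in 1 fit, Cdc25c was the 1 member called between 0.3 and 3 ng (2.31, adjusted p = 0.0232). Over all alternatives the adjusted p of Cdc25c was 0.029 to 0.56 for 0.3 against 10 ng and 0.0232 to 0.506 for 0.3 against 3 ng.

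The median SD of members in kidney was 0.41 with a pseudocount of 16 and 0.34 to 0.46 with an array left out; at 0.3 ng it was 0.28 to 0.42 and at 3 ng 0.09 to 0.17 with an array left out. Equal replicate numbers do not pair the arrays: the deviations of same-numbered arrays from their group means correlated at -0.063 to 0.016. With the replicate block 43, 43 and 41 members were called lower against 10, 3 and 0.3 ng and 0 between inputs. Counted as probe sets and not as genes, calls between 0.3 and 10 ng over the whole array numbered 215 in the main fit and ranged from 0 to 1571. Low signal in kidney limits the differences of the 10 genes under background to bounds.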
